A study of Mus musculus with 7 samples.

Results

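Spleen cells with a trait of innate-like T cells were read from the single-cell libraries by 2 routes. The first route took every spleen cell with at least 1 UMI, a counted RNA molecule, of *Zbtb16*. The second took every spleen cell with a productive T cell receptor (TCR) α chain that joins TRAV11 to TRAJ18. Together they gave 174 of 11206 spleen cells, 129 of 5668 in young SP and 45 of 5538 in old SP. The *Zbtb16* route found 99 young and 29 old cells, the receptor route found 77 and 28, and 47 and 12 cells came from both.

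The study compared T cells of the spleen (SP) and of the small intestinal epithelium (IEL) between male C57BL/6 mice of 6 weeks and of 80 weeks. The labels give 3 mice per age, although a legend of the study gives more for the young pools, pooled by tissue, so young SP and old SP were 1 pool each, marked with a hashtag antibody after enrichment of CD45+ cells. CD3+ and CD3+CD4+ cells were sorted and read by 5′ 10x libraries for RNA and for TCR. The labels name no transgene and no treatment. With 1 pool per group there are no replicates and no test was made. Values in brackets after a share are exact binomial (Clopper-Pearson) 95% limits and those after a UMI level exact Poisson 95% limits, and both reflect counting error alone. Age and pool cannot be told apart.

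*Zbtb16* encodes PLZF, the transcription factor that directs the development of innate-like T cells. In the mouse, invariant natural killer T (iNKT) cells carry a nearly fixed α chain made from TRAV11 and TRAJ18, paired with a limited set of β chains, and recognise lipids held by CD1d. They leave the thymus already able to release cytokines, and are commonly sorted into T-bet+ NKT1, GATA3+ NKT2 and IL-17-producing NKT17 types. Mucosal-associated invariant T cells, with TRAV1 and TRAJ33, and some γδ T cells use PLZF too.

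The deposited counts held 35009348 UMIs in young SP and 39915809 in old SP, and 0 barcodes were listed in more than 1 group. TRAV11-TRAJ18 cells had a median of 5428 UMIs in young SP and 4828.5 in old SP. Cells with a *Zbtb16* UMI and no such chain, called *Zbtb16*-only cells below, had 6689 and 5998. The 5539 young and 5493 old cells of neither route, called other spleen cells, had 5690 and 6551. The chosen cells were thus shallower than the rest in old SP, and *Zbtb16*-only cells were deeper than the rest in young SP.

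The α chain defines the receptor route, so its junctions are shown first. *Trav11* (ENSMUSG00000096615) lies on chromosome 14 from 53519303 to 53519859 and *Traj18* (ENSMUSG00000076911) on chromosome 14 from 54200777 to 54200842, on the plus strand of GRCm38 (GENCODE M21). The lines below give the CDR3 nucleotides of the 4 chains found at both ages, the only ones among 14 distinct spleen chains, and of the 2 chains of another length. Lower case letters match the germline segments and capitals mark bases that match neither.
shared 1: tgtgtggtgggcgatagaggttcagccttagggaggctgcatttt
shared 2: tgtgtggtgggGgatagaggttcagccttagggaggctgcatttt
shared 3: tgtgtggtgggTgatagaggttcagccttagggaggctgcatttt
shared 4: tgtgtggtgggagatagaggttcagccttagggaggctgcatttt
young, 39 bases: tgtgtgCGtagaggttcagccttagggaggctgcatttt
young, 42 bases: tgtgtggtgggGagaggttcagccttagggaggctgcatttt

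The first shared chain was read in 25 young and 8 old spleen cells, the second in 21 and 11, the third in 12 and 3 and the fourth in 10 and 4. These 4 sequences covered 68 of 77 young and 26 of 28 old TRAV11-TRAJ18 cells. They differ from each other at a single base, where V and J meet. In the first and the fourth every base matched the germline ends, and in the second and the third 1 base matched neither. All 4 were also read in young IEL, in 10, 5, 2 and 2 cells. The CDR3 had 45 bases in 75 of 77 young and in all 28 old cells, and each remaining sequence was found at 1 age and in at most 2 spleen cells.

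**Figure D1:**
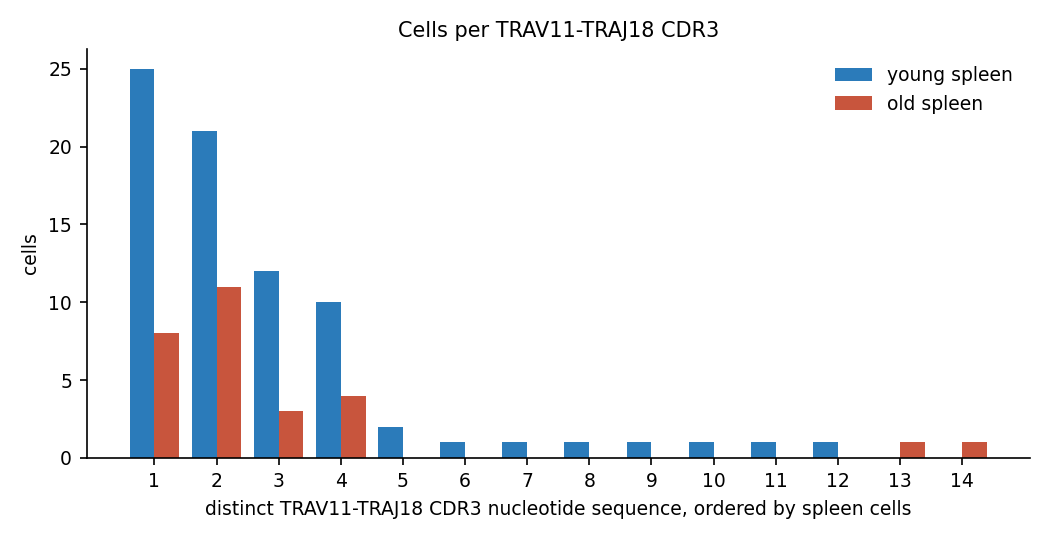
Number of spleen cells (y axis) with each of the 14 distinct TRAV11-TRAJ18 CDR3 nucleotide sequences (x axis, ordered by cells), in young SP (blue) and old SP (red). The first 4 sequences were found at both ages and hold 68 of 77 young and 26 of 28 old cells.

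The cells that shared an α chain did not share a receptor. Every TRAV11-TRAJ18 cell had a productive β chain, and the 77 young and 28 old cells each had a receptor of their own when both CDR3 sequences were counted. The 25 young cells with the first shared α chain carried 26 distinct β CDR3 sequences over 6 TRBV segments. Among the other spleen cells with both chains, 0.482% in young SP (0.302 to 0.728) and 34.1% in old SP (32.7 to 35.5) shared their receptor with another cell, and the largest old clone held 1121 cells. The exact upper limits for 0 shared receptors were 4.68% in young and 12.3% in old TRAV11-TRAJ18 cells. Of the *Zbtb16*-only cells with both chains, 0 of 23 young and 1 of 7 old shared a receptor, and that old cell belonged to the clone of 1121 cells.

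The β chains of the TRAV11-TRAJ18 cells came mostly from the TRBV13 family, TRBV29 and TRBV1, known as Vβ8, Vβ7 and Vβ2, the segments that mouse iNKT cells are known for. They made up 75 of 82 chains in young SP, or 91.5% (83.2 to 96.5), and 27 of 29 in old SP, or 93.1% (77.2 to 99.2). In other spleen cells they made up 30.9% (29.6 to 32.1) and 23.4% (22.2 to 24.6). The β chain was used by neither route, and the intervals of the members and of the other cells did not overlap at either age. *Zbtb16*-only cells lay between, with 17 of 38 chains or 44.7% (28.6 to 61.7) and 5 of 12 or 41.7% (15.2 to 72.3), and there the intervals held the share of the other cells.

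TRBV13-2 was the commonest segment of the TRAV11-TRAJ18 cells, with 45 of 82 chains or 54.9% (43.5 to 65.9) in young SP and 15 of 29 or 51.7% (32.5 to 70.6) in old SP, against 10.8% and 8.56% of the chains of other cells. *Trbv13-2* lies on chromosome 6 from 41121396 to 41121832. TRBV29 followed in young SP with 17.1% (9.66 to 26.98), against 3.36% in other cells, and its share in old SP was 10.3% (2.19 to 27.4), against 2.51%. TRBV1 made up 8.54% (3.50 to 16.8) of young and 13.8% (3.89 to 31.7) of old chains, against 6.49% and 4.08%, so at both ages its interval held the share of the other cells, as did the interval of TRBV29 in old SP. TRBV2 was in 0 of 82 and 0 of 29 chains of TRAV11-TRAJ18 cells, against 3.84% and 26.3% in other cells. Once cells that share a receptor were left out of the other cells, TRBV2 made up 3.86% and 4.87% of their chains, below the upper limits of 4.40% and 11.9% for the members, and TRBV13, TRBV29 and TRBV1 together made up 30.9% and 31.0%. The TRBJ segments were spread more widely, with TRBJ2-7 commonest in young cells at 19.5% and TRBJ1-1 in old cells at 20.7%.

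The next lines show β CDR3 sequences that paired with this α chain, 1 from each main TRBV segment. For each of the 3 segments they give the young TRAV11-TRAJ18 cell with the most *Zbtb16* UMIs.
TRBV13-2, TRBJ2-7: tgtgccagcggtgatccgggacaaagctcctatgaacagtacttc
TRBV29, TRBJ2-7: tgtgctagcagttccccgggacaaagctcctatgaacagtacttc
TRBV1, TRBJ2-4: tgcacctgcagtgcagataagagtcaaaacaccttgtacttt

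These 3 cells had 7, 5 and 6 *Zbtb16* UMIs. Over all young TRAV11-TRAJ18 cells the β CDR3 ranged from 33 to 54 bases with a median of 45, whereas the α CDR3 had 45 bases in all but 2 cells.

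**Figure D2:**
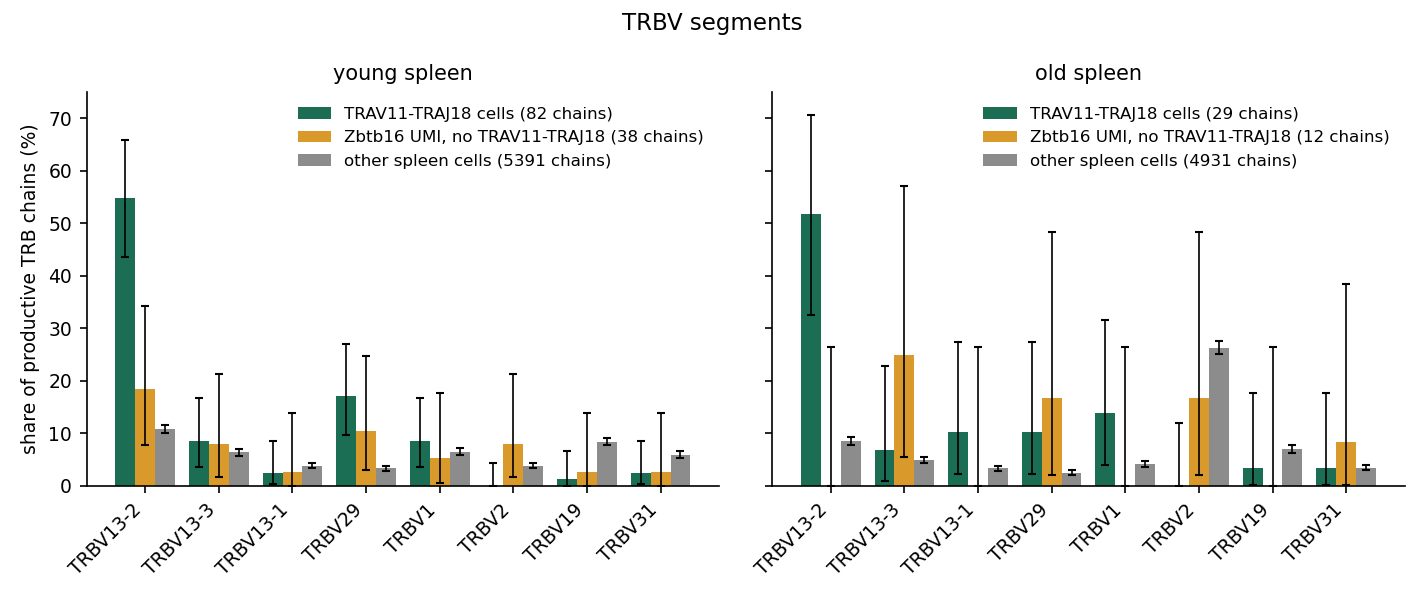
Share of productive TRB chains (y axis, percent, from 0) by TRBV segment (x axis) in TRAV11-TRAJ18 cells (green), *Zbtb16*-only cells (orange) and other spleen cells (grey), for young SP (left) and old SP (right), with exact 95% intervals. TRBV13-2 holds 54.9% and 51.7% of the chains of TRAV11-TRAJ18 cells, and 10.8% and 8.56% of those of other cells.

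The 2 routes found overlapping but unequal sets of cells. *Zbtb16* (ENSMUSG00000066687) lies on chromosome 9 from 48654297 to 48836222 on the minus strand. A UMI of it was found in 99 of 5668 young cells, or 1.75% (1.42 to 2.12), and in 29 of 5538 old cells, or 0.524% (0.351 to 0.751). A TRAV11-TRAJ18 chain was found in 77 young cells, or 1.36% (1.07 to 1.695), and in 28 old cells, or 0.506% (0.336 to 0.730). Both shares were lower in the old pool. The intervals reflect counting error within 1 pool per age and give no test of age. These shares chose the cells and are a description. The 5538 old cells include the clone of 1121 cells, and its part in the old shares was not tested. After every cell had been thinned to 2000 UMIs, which left out shallower cells, *Zbtb16* was found in 54 of 5639 young and 14 of 5501 old cells, or 0.958% and 0.254%.

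Among TRAV11-TRAJ18 cells, chosen without any use of *Zbtb16* RNA, a *Zbtb16* UMI was found in 47 of 77 young cells, or 61.0% (49.2 to 72.0), and in 12 of 28 old cells, or 42.9% (24.5 to 62.8). As a background, spleen cells with *Cd8b1* and a TRB chain and with no *Cd4*, *Trdc* or *Cd44* UMI had one in 3 of 1547 young and 1 of 1610 old cells, or 0.194% (0.0400 to 0.566) and 0.0621% (0.00157 to 0.346), at median depths of 6291 and 7422 UMIs. Thinned to 2000 UMIs, TRAV11-TRAJ18 cells had a *Zbtb16* UMI in 29 of 77 and 8 of 27 cells, or 37.7% and 29.6%. The *Zbtb16* level of TRAV11-TRAJ18 cells was 2.47 UMIs per 10000 UMIs (2.04 to 2.97) in young SP and 1.37 (0.825 to 2.14) in old SP, with at most 12 and 3 UMIs in 1 cell. The old pool lay lower in level, and the 2 intervals overlapped slightly.

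Cells just inside and just outside the rule were read as follows. Of the 53 young and 20 old cells with exactly 1 *Zbtb16* UMI, 20 and 8 had a TRAV11-TRAJ18 chain, against 27 of 46 and 4 of 9 cells with 2 or more. TRAV11 with another TRAJ segment occurred in 14 young and 6 old cells, of which 0 had a *Zbtb16* UMI. TRAJ18 with another TRAV segment occurred in 95 and 63 cells, of which 1 and 0 had one. The TRA contigs of the TRAV11-TRAJ18 cells had a median of 5 UMIs in young and 4 in old SP, with a lowest value of 1.

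*Zbtb16*-positive cells held several kinds of receptor. Of the 99 young cells, 47 had the TRAV11-TRAJ18 chain, or 47.5% (37.3 to 57.8), 34 had another TRB chain, 6 had a UMI of *Trdc*, the TCR δ constant gene, and no TRB chain, 10 had neither chain nor *Trdc*, 1 had a TRA chain alone and 1 had TRAV1-TRAJ33. Of the 29 old cells, 12 had the TRAV11-TRAJ18 chain, or 41.4% (23.5 to 61.1), 11 had another TRB chain, 3 had *Trdc* and no TRB, and 3 had neither. Read the other way, a *Zbtb16* UMI was found in 8.96% of young (3.36 to 18.5) and 11.1% of old (2.35 to 29.2) cells with *Trdc* and no TRB, but in 0.666% (0.462 to 0.930) and 0.231% (0.116 to 0.414) of cells with another TRB chain. The cells with *Trdc* and no TRB were 67 in young and 27 in old SP, so the second largest share rested on 6 and 3 positive cells. At both ages the interval of cells with another TRB overlapped that of the CD8 background, and 33 of 52 young and 12 of 17 old *Zbtb16*-only cells had just 1 UMI.

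**Figure D3:**
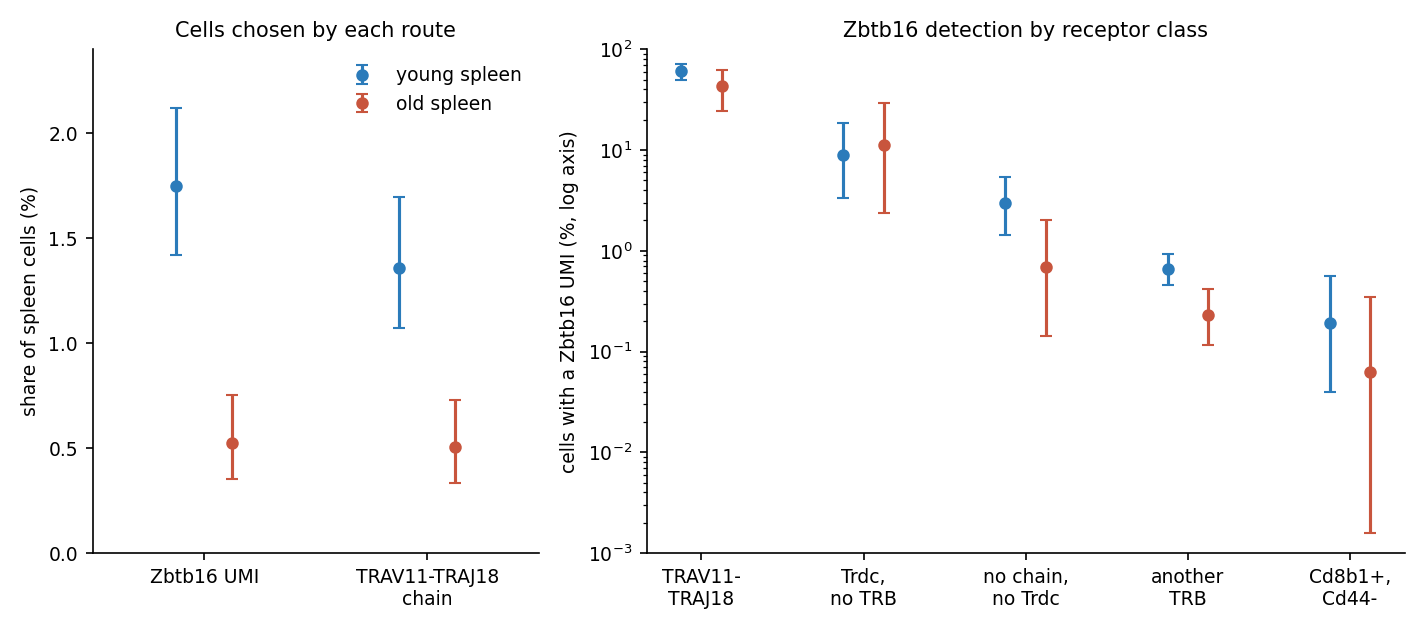
Left, share of spleen cells (y axis, percent, from 0) chosen by each route in young SP (blue) and old SP (red). Right, share of cells with a *Zbtb16* UMI (y axis, percent, log axis) by receptor class, with CD8 cells that had no *Cd44* UMI (*Cd8b1*+, *Cd44*-) as the background, and exact 95% intervals in both. TRAV11-TRAJ18 cells stand at 61.0% and 42.9% and the background at 0.194% and 0.0621%.

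The markers *Cxcr6*, *Klrb1c* and *Ckb* were read in the chosen cells. They were picked with earlier results of these data known, so their values describe the cells and are no independent check of the label. *Cxcr6* encodes a chemokine receptor of tissue-homing lymphocytes, *Klrb1c* the NK1.1 receptor, and *Ckb* the brain type of creatine kinase. In TRAV11-TRAJ18 cells, *Cxcr6* was found in 70 of 77 young and 27 of 28 old cells, *Klrb1c* in 38 and 19, and *Ckb* in 59 and 18. At least 2 of the 3 were found in 84.4% of young (74.4 to 91.7) and 92.9% of old (76.5 to 99.1) cells, against 0.993% and 9.07% of other spleen cells. In *Zbtb16*-only cells the share was 51.9% (37.6 to 66.0) and 58.8% (32.9 to 81.6). At least 2 of the 3 markers were thus read in most receptor-chosen cells and in about every second *Zbtb16*-only cell. *Cxcr6* was found in 18 of 33 young *Zbtb16*-only cells with 1 UMI of *Zbtb16* and in 18 of 19 with more, and in 6 of 12 and 5 of 5 old ones.

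Gene levels were compared as UMIs per 10000 UMIs of the summed cells, as log2 ratios after adding 0.1 to both levels. A gene was counted as higher or lower where the ratio was at least 2-fold the same way at both ages. Of 3488 genes above the minimum of 0.5 UMIs per 10000, 151 were higher in TRAV11-TRAJ18 cells than in other spleen cells, or 4.33%, and 49 were lower, or 1.4%. The median ratio of all genes tested was above 0, at 0.22 in young and 0.23 in old SP, and relative to it the counts were 104 higher and 75 lower. Of the 49 lower genes, 17 had 0 UMIs in members at an age, and for 4 of them, *Gzmm* included, the bound from 3 counts was under 2-fold, which leaves 45. A gene can pass the minimum through the chosen cells alone, so the list counts below are a description, to be read against these shares. TCR segment genes and *Zbtb16* were left out, since other spleen cells had 0 *Zbtb16* UMIs by the rule.

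The marker genes had among the largest ratios. *Cxcr6* was at 11.1 UMIs per 10000 (10.2 to 12.2) in the young and 11.5 (9.82 to 13.5) in the old TRAV11-TRAJ18 cells, against 0.352 and 0.790 in other cells, log2 ratios of 4.64 and 3.71. *Ckb* was at 4.86 (4.24 to 5.54) and 3.89 (2.93 to 5.08), against 0.176 and 0.0865, ratios of 4.17 and 4.42. *Klrb1c* was at 2.32 (1.90 to 2.81) and 3.25 (2.37 to 4.34), against 0.0547 and 0.310, ratios of 3.97 and 3.03. *Cxcr6* and *Klrb1c* were thus not lower in old than in young members, while both were higher in the other old cells.

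Of 26 transcription factors listed, 16 passed the minimum, and 5 were higher and 4 lower. *Id2*, an inhibitor of E proteins that innate and effector lymphocytes use, was at 18.2 (17.0 to 19.5) and 19.5 (17.3 to 22.0) in TRAV11-TRAJ18 cells, against 0.945 and 2.398. Its relative *Id3* was at 0.0657 (0.0135 to 0.192) in young cells against 1.44, and had 0 UMIs in old cells, at least 2.96-fold lower than the 0.640 of other cells. The 2 inhibitors therefore lay on opposite sides. *Tbx21*, which encodes T-bet, was at 2.04 (1.64 to 2.49) and 1.80 (1.17 to 2.66), against 0.184 and 0.749, ratios of 2.91 and 1.17. *Rora*, *Bhlhe40* and *Maf* were the other higher factors, with ratios of 2.82 and 2.41, 3.03 and 2.37, and 2.16 and 1.37. *Tcf7*, which encodes TCF-1 of naive and memory T cells, had ratios of -1.60 and -1.83, and *Tox* of -1.36 and -2.57. *Eomes*, a T-box factor of NK and memory CD8 T cells, had 2 UMIs in young and 0 in old TRAV11-TRAJ18 cells, where it was at least 4.79-fold lower. *Maf* and *Eomes* turned to the other side against other cells with *Cd4* and no *Cd8b1*, where the age with the smaller ratio had -0.34 and 0.0871. Both calls were lost after thinning. That of *Maf* was also lost with equal weights per cell, and that of *Eomes* once cells that share a receptor were left out of the other cells. *Gata3* missed the 2-fold line in old SP, with ratios of 1.26 and 0.97.

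Among 20 NKT1 genes, 15 passed and 9 were higher: *Tbx21*, *Ifng*, *Klrb1c*, *Klrk1*, *Xcl1*, *Il2rb*, *Cxcr3*, *Fasl* and *Il12rb2*. The median of the 15 was 2.50 in young and 1.17 in old SP. *Ifng*, which encodes interferon-γ, was at 3.02 (2.54 to 3.57) and 1.80 (1.17 to 2.66), against 0.126 and 0.316. *Klrk1*, which encodes the NKG2D receptor, was at 1.66 (1.31 to 2.08) in the young and 5.99 (4.77 to 7.42) in the old cells, against 0.0990 and 0.892. *Xcl1*, a chemokine that draws cross-presenting dendritic cells, was at 3.77 (3.22 to 4.37) and 4.18 (3.18 to 5.41), against 0.564 and 0.548. *Il2rb*, the β chain that binds IL-2 and IL-15, had ratios of 2.36 and 1.26, and *Il12rb2* of the IL-12 receptor had 2.50 and 2.86. Against other cells with a *Cd44* UMI, a marker of activated and memory T cells, *Tbx21*, *Il2rb*, *Cxcr3* and *Icam1* fell below 2-fold. *Ccl5* did not hold a direction: it was at 22.9 and 59.0 in TRAV11-TRAJ18 cells and at 8.46 and 87.2 in other cells, and *Nkg7* had ratios of 1.47 and 0.26.

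Of 10 NKT2 genes, 6 passed, 2 were higher and 1 lower. *Il4* was at 1.31 (1.00 to 1.69) and 0.577 (0.249 to 1.14) in TRAV11-TRAJ18 cells, against 0.00615 and 0.0179, from 60 and 8 UMIs. *Icos*, a costimulatory receptor, had ratios of 2.24 and 1.76, and was no longer 2-fold higher at both ages after thinning or against other cells with *Cd4* and no *Cd8b1*. *Il6ra*, a receptor subunit of naive T cells, was the lower gene, at 0 UMIs in old cells and there at least 3.88-fold lower. *Il13* had no UMI in these cells. Among the other spleen cells *Il4* was found in 13 of 5539 young and 41 of 5493 old ones.

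Of 15 NKT17 genes, 3 passed, *Tmem176a*, *Tmem176b* and *Ramp1*, and all 3 were higher. *Il17a*, the cytokine that names the type, had a UMI in 1 of 77 young and 0 of 28 old TRAV11-TRAJ18 cells, and *Il23r* of the IL-23 receptor had 1 UMI in young cells. *Tmem176b*, a membrane protein gene of IL-17-producing and myeloid cells, was at 0.438 (0.268 to 0.676) in the young and 3.68 (2.74 to 4.84) in the old cells, against 0.0591 and 0.0918, and was found in 11 of 77 and 18 of 28 cells. *Ramp1*, a receptor subunit for the neuropeptide CGRP, had ratios of 1.16 and 1.13. It fell below 2-fold with centring, equal weights, thinning and without cells that share a receptor, and turned to -0.0872 at 1 age against other cells with *Cd4* and no *Cd8b1*.

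Co-detection was then read cell by cell. *Tbx21* was found in 66.2% of young (54.6 to 76.6) and 60.7% of old (40.6 to 78.5) TRAV11-TRAJ18 cells, against 6.81% and 31.1% of other cells. *Ifng* was found in 55.8% (44.1 to 67.2) and 46.4% (27.5 to 66.1), against 4.53% and 14.1%. *Il4* was found in 44.2% (32.8 to 55.9) and 21.4% (8.30 to 41.0), against 0.235% and 0.746%. Both cytokines were read in the same cell in 23 of 77 young and 3 of 28 old cells, or 29.9% (19.97 to 41.4) and 10.7% (2.27 to 28.2), against 0.0722% and 0.2003%. The intervals of the 2 ages overlapped for each of these 4 shares, while each interval lay above the share of the other cells of the same age.

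Coreceptor RNA was read next, where a cell without a UMI need not lack the RNA. *Cd4* was found in 32 of 77 young and 5 of 28 old cells, or 41.6% (30.4 to 53.4) and 17.9% (6.06 to 36.9), and *Cd8b1* in 4 and 1. None of *Cd4*, *Cd8a* and *Cd8b1* was found in 51.9% (40.3 to 63.5) and 78.6% (59.0 to 91.7), against 21.9% and 14.4% of other cells. At 2000 UMIs per cell *Cd4* was found in 15 of 77 and 1 of 27 cells, against 19.98% and 15.2% of other cells. Young cells with and without a *Cd4* UMI had *Tbx21* in 65.6% and 66.7%, *Ifng* in 56.3% and 55.6%, *Il4* in 43.8% and 44.4%, and *Zbtb16* in 65.6% and 57.8%, with wide overlap of every pair of intervals. *Cd8b1* was at 0.635 (0.425 to 0.912) and 0.0721 (0.00183 to 0.402) UMIs per 10000, against 6.84 and 9.85.

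Several genes of naive and recirculating T cells were lower in TRAV11-TRAJ18 cells. Of 12 naive T cell genes, all 12 passed and 7 were lower, with a median of -2.24 in young and -1.74 in old SP. *Ccr7*, the chemokine receptor for entry into lymph nodes, was at 0.307 (0.168 to 0.514) in young TRAV11-TRAJ18 cells against 3.80, and at 0 UMIs in old cells, at least 11.04-fold lower than the 2.39 of other cells. *Igfbp4*, *Nsg2* and *Dapl1* had 0 UMIs in old cells and were there at least 7.63, 7.02 and 5.77-fold lower. A UMI of *Ccr7* was found in 6 of 77 young TRAV11-TRAJ18 cells, or 7.79% (2.91 to 16.2), against 78.4% of other cells, and in 0 of 28 old ones (upper limit 12.3% of cells with a UMI), against 64.6%, at the lower depth of the old members. *Lef1* and *Klf2*, factors of quiescent T cells, missed the line in old SP, with ratios of -1.58 and -0.91 and of -2.17 and -0.54. The rest of the list was not lower at both ages: *Il7r*, the IL-7 receptor, had ratios of 0.83 and 0.90, *Satb1*, a chromatin organiser, -0.02 and 0.10, and *Ly6c1*, a Ly6 surface protein, -0.54 and 1.33.

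Of 24 homing and residency genes, 18 passed, 7 were higher and 4 lower. *Ccr2*, a receptor for inflammatory chemokines, was at 1.86 (1.49 to 2.30) and 2.31 (1.58 to 3.26), against 0.0615 and 0.638. *Ccr9*, the gut-homing receptor, had ratios of 1.26 and 2.74, and *Rgs1*, a regulator of G protein signals in tissue T cells, had 2.60 and 2.32. *S1pr1*, which leads lymphocytes out of tissues, had ratios of -2.31 and -1.64. *Itga4*, an integrin subunit, had 0 UMIs in old cells and was there at least 6.49-fold lower. *Zfp683*, which encodes the residency factor Hobit, was at 1.47 (1.14 to 1.86) and 1.23 (0.714 to 1.96), against 0.0199 and 0.0265.

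The genes with the largest ratios at both ages were, in order, *Ckb*, *Cxcr6*, *Asb2*, *Zfp683*, *Kcnq5*, *Tmem273*, *Klrb1c*, *Id2*, *Atp8a2*, *St6galnac3*, *Gm36723*, *Podnl1*, *Klrk1*, *Lmo4* and *Xcl1*. *Kcnq5*, a voltage-gated potassium channel gene best known in neurons, was at 5.39 (4.73 to 6.10) and 3.39 (2.49 to 4.51), against 0.262 and 0.286, and was found in 62 of 77 and 19 of 28 cells. *Asb2*, a subunit of a ubiquitin ligase, had ratios of 3.76 and 3.39, and *Atp8a2*, a lipid flippase gene, 2.97 and 3.33. *Tmem273*, *Podnl1*, *St6galnac3* and *Lmo4* ranged from 2.55 to 3.32. Among the 10 lowest were *Igfbp4*, *Nsg2*, *Ccr7*, *Cd8b1*, *Cd8a*, *Id3*, *Actn1*, *Dapl1* and *Fam169b*.

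**Figure D4:**
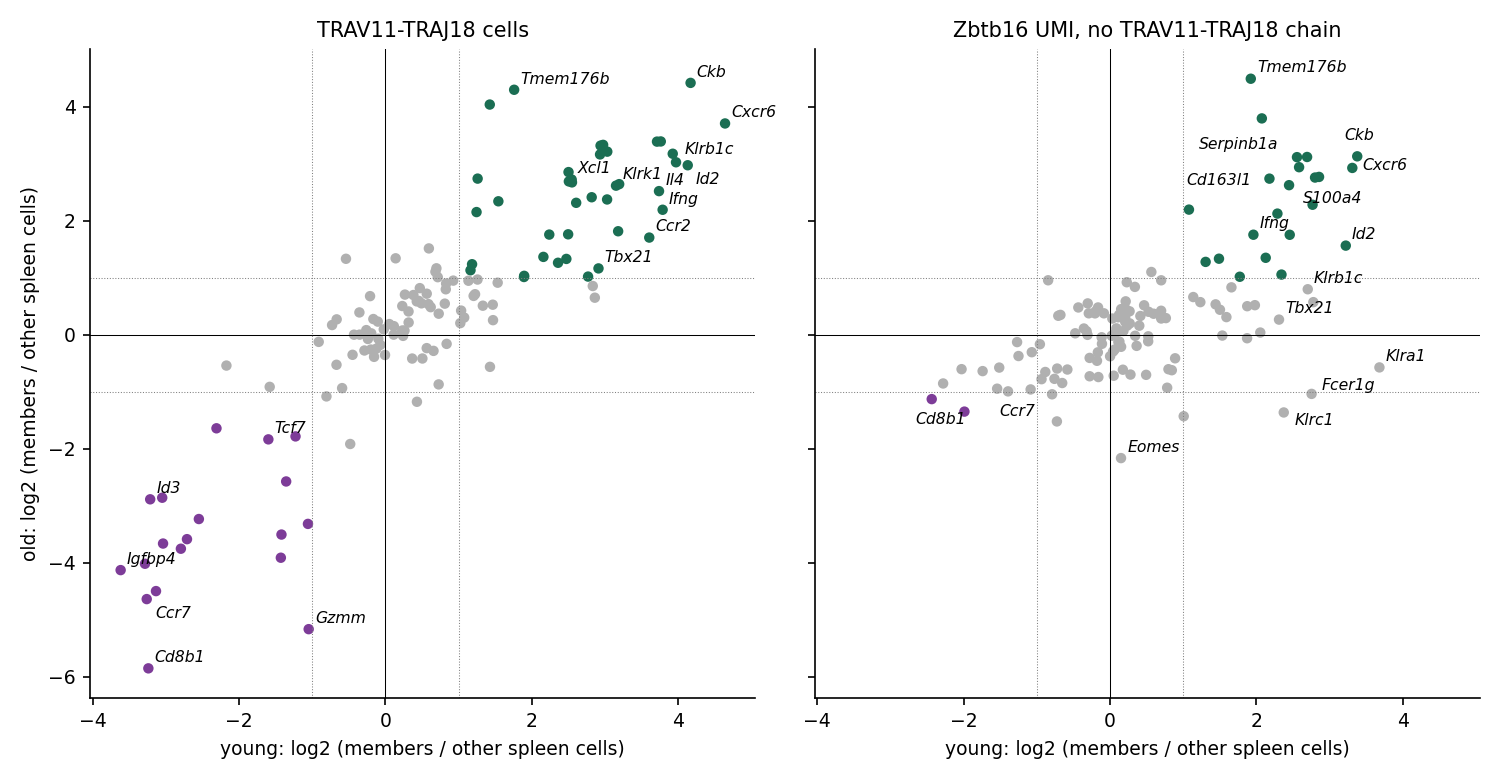
Log2 ratio of members to other spleen cells in young SP (x axis) and old SP (y axis) for listed and named genes above the minimum, for TRAV11-TRAJ18 cells (left) and *Zbtb16*-only cells (right). Green points are at least 2-fold higher and purple points at least 2-fold lower at both ages, dotted lines mark 2-fold, and *Cxcr6* and *Ckb* lie at the upper right of both panels.

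Signaling, cytotoxicity and receptor lists followed. Of 17 T cell receptor signaling genes that passed, 0 were higher or lower, and the median was 0.11 in young and 0.03 in old SP. Of 8 SLAM family genes and adaptors, which relay the thymic signals that select iNKT cells, 0 were higher or lower. Of 12 early response genes 1 was higher, *Dusp1*, a phosphatase of MAP kinases, at 6.99 (6.24 to 7.80) and 9.59 (8.03 to 11.4), against 2.33 and 1.81. Of 9 cytotoxicity genes 1 was higher, *Fasl*, whose call was lost after thinning, and 1 lower, *Gzmm*, a granzyme, which had 0 UMIs at both ages and was at least 16.1-fold lower in old SP. In young SP its bound was 1.63-fold, so the count of *Gzmm* there rests on the added 0.1, and it was lost with equal weights, after thinning and against other cells with *Cd4* and no *Cd8b1*. *Gzma* had ratios of 0.23 and 0.50 and *Prf1* of -0.07 and -0.18. Of 12 cytokine receptor genes that passed, *Il12rb1*, *Il12rb2* and *Il2rb* were higher, *Il6ra* was lower and 8 were neither, among them *Il18r1* with ratios of 1.22 and 0.71. *Il12rb1* was lost after thinning.

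Markers of other cells were set beside these values. *Cd3e* was at 12.7 and 12.5 in TRAV11-TRAJ18 cells, against 10.2 and 9.37. *Ncr1*, *Lyz2* and *Foxp3*, which define NK, myeloid and regulatory T cells, had 0 UMIs in TRAV11-TRAJ18 cells of both ages. The floor of 3 counts gave a bound only for *Foxp3* in young SP, at least 3.90-fold below the 0.256 of other cells. Elsewhere the other cells were themselves too low for a bound. The 10 myeloid genes summed to 1.14 and 1.66, against 0.871 and 1.00, nearly all of it *Cst3*, at 1.12 and 1.66. The 4 regulatory T cell genes summed to 1.58 and 1.59, against 1.64 and 1.52, mostly from *Ikzf2* and *Il2ra*. Of 4 plasma cell genes 1 passed, *Xbp1*, and was higher, with ratios of 1.18 and 1.24, where 4.33% of all genes tested were higher. Its call was lost with a pseudocount of 1, with centring and against other cells with *Cd4* and no *Cd8b1*. The 4 plasma cell genes summed to 0.964 and 0.938, against 0.373 and 0.745. Of 8 NK genes listed 3 passed, and their summed level was 3.79 in young and 5.34 in old cells, against 1.22 and 2.31, led by *Klrb1c*, which is also a marker of the cells themselves. The 7 γδ T cell genes listed summed to 2.85 and 1.73, against 0.287 and 0.221, led by *Trgv2* at 1.23 and 1.01, while *Trdc* was found in 1 of 77 and 0 of 28 cells. *Tcrg-C1* RNA was at 0.788 (0.552 to 1.09) and 0.361 (0.117 to 0.841), against 0.0331 and 0.0126. RNA of γ locus genes was thus read in cells with a complete αβ receptor and almost no *Trdc* RNA. Whether it came from a complete γ chain was not tested.

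TRAV11-TRAJ18 cells were also read apart by whether a *Zbtb16* UMI was found. The 30 young and 16 old cells without it gave 157 genes higher of 3525, or 4.45%, and 58 lower, or 1.65%, of which 47 remain when bounds under 2-fold are left out. The 47 and 12 cells with it gave 130 of 3479, or 3.74%, and 49 lower, or 1.41%, of which 34 remain. *Cxcr6* was at 11.4 and 13.2 without and 10.97 and 9.12 with a *Zbtb16* UMI, and *Id2* at 20.3 and 20.7 without and 16.9 and 17.9 with one. *Il4* was at 1.23 and 0.980 without and at 1.37 and 0 with one, so all old *Il4* UMIs lay in cells where *Zbtb16* was not read. Both sets were compared with the same other cells.

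*Zbtb16*-only cells were a mixed set, and fewer genes were common to them. Of 3269 genes tested, 49 were higher at both ages, or 1.5%, and 7 lower, or 0.214%. The median of all genes was 0.13 in young and 0.12 in old SP, and relative to it 35 were higher and 12 lower. For 1 of the 7 lower genes, at 0 UMIs at an age, the bound from 3 counts was under 2-fold, which leaves 6. The 10 highest were *Ckb*, *Cxcr6*, *Kcnq5*, *S100a4*, *Serpinb1a*, *Lmo4*, *Zfp683*, *St6galnac3*, *Chn2* and *Cd163l1*. *Cxcr6* was at 4.38 (3.75 to 5.08) and 6.68 (5.35 to 8.24) in the young and old members, *Ckb* at 2.77 (2.28 to 3.34) and 1.53 (0.938 to 2.37), and *Id2* at 9.64 (8.70 to 10.7) and 7.29 (5.90 to 8.91). These levels lay between those of TRAV11-TRAJ18 cells and of other cells. *Klrb1c* was at 0.906 (0.635 to 1.25) and 0.614 (0.265 to 1.21), with ratios of 2.70 and 0.80, and *Tbx21* had ratios of 2.31 and 0.27, so neither held at both ages.

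*Ccr7* and cytokine genes were read cell by cell in both sets, at the greater depth of *Zbtb16*-only cells. A UMI of *Ccr7* was found in 16 of 52 young and 7 of 17 old *Zbtb16*-only cells, or 30.8% (18.7 to 45.1) and 41.2% (18.4 to 67.1), against 6 of 77 and 0 of 28 TRAV11-TRAJ18 cells. *Il4* was found in 12 of 52 and 1 of 17, *Ifng* in 15 and 6, and both together in 3 and 1. *Cd8b1* was found in 8 and 5. *Id3*, nearly absent from TRAV11-TRAJ18 cells, was at 1.64 (1.26 to 2.09) and 0.384 (0.125 to 0.895) in *Zbtb16*-only cells.

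Gene lists were counted in *Zbtb16*-only cells in the same way. Of 20 NKT1 genes 14 passed and 2 were higher, *Ifng* and *Xcl1*, with a median of 1.77 in young and -0.01 in old SP. *Ifng* was lost after thinning and *Xcl1* against other cells with *Cd44*. Of 12 naive genes all 12 passed and 0 were lower at both ages, with medians of -0.95 and -0.61. Of 26 transcription factors 14 passed, and *Rora*, *Id2* and *Maf* were higher, and the *Maf* ratio was below 0 at 1 age with members limited to those with another TRB chain. *Cd8b1* and *Cd74*, a chaperone of MHC class II, were among the 7 lower genes, and *Cd8b1* was no longer 2-fold lower at both ages once cells that share a receptor were left out of the other cells. Markers of other cells differed between the ages. *Cd3e* was at 11.8 and 10.97, and *Lyz2* had 0 UMIs, again without a bound below the level of other cells. The myeloid genes summed to 1.11 and 1.92, against 0.871 and 1.00, led by *Cst3* at 1.08 and 1.84, and the regulatory T cell genes to 2.95 and 1.53, against 1.64 and 1.52, led by *Ikzf2*. The 8 NK genes summed to 4.15 in young and 1.23 in old members, against 1.22 and 2.31 in other cells, with *Fcer1g* the most abundant in young ones at 1.84, *Ncr1* in 1 of 52 cells, and *Fcer1g* at 0 UMIs in old ones. The γδ genes summed to 3.42 and 8.98, against 0.287 and 0.221. The part of NK and γδ cells in the gene ratios of the whole set was not tested apart from the values that follow.

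Of 15 NKT17 genes, 4 passed in *Zbtb16*-only cells and all 4 were higher, *Serpinb1a*, *Tmem176a*, *Tmem176b* and *Ramp1*. *Cd163l1*, which encodes the scavenger receptor SCART1 of γδ T cells, had 20 UMIs in young *Zbtb16*-only cells, of which 19 lay in 2 of the 6 cells with *Trdc* and no TRB, and 21 in old ones, all in 2 of the 3 such cells. *Serpinb1a*, a protease inhibitor of IL-17-producing cells, had 10 of 25 young UMIs in 1 such cell and 13 of 14 old UMIs in 2. *Trdv4*, a δ variable segment, had 21 UMIs in 1 of the young cells and 77 in 2 of the old cells, and 0 in the other *Zbtb16*-only cells. *S100a4*, a calcium-binding protein of effector T cells, had 49 of 73 old UMIs in the 3 cells. *Klrb1c* had 0 UMIs in these 6 and 3 cells. With members limited to those with another TRB chain, *Cd163l1*, *Serpinb1a*, *Rora*, *Maf*, *Xcl1* and *Il18rap* were no longer 2-fold higher at both ages. *Tmem176a*, *Tmem176b* and *Ramp1* stayed higher there, with ratios of 1.90, 1.54 and 1.17 at the age nearer to 0. *Ramp1* turned to -0.43 at 1 age after thinning and fell below 2-fold with equal weights, centring and the *Cd4* comparison.

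**Figure D5:**
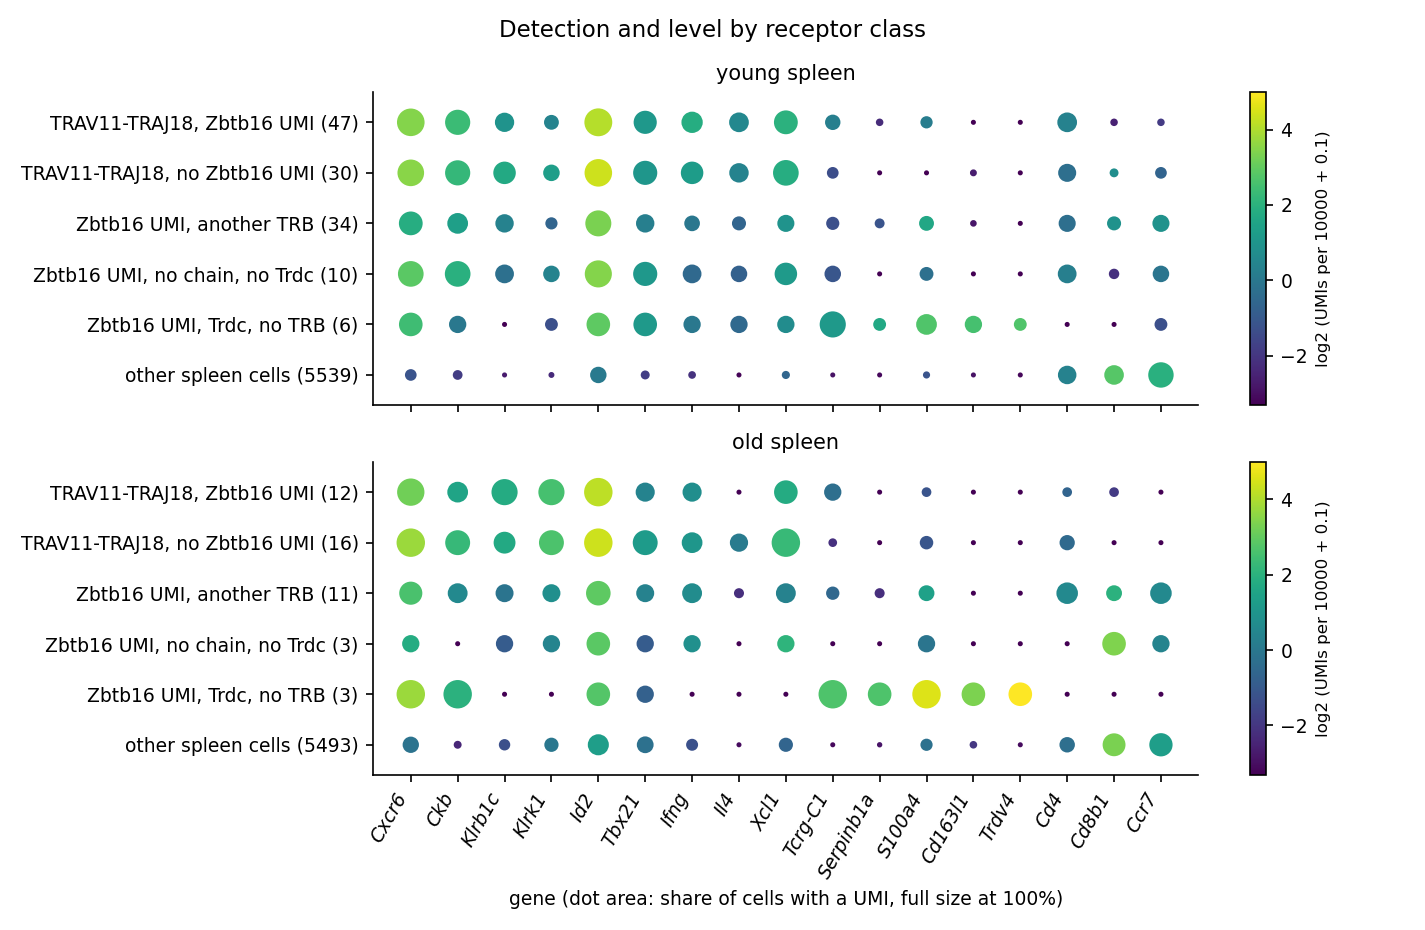
Genes (x axis) by receptor class (y axis, cells in brackets) in young SP (top) and old SP (bottom). Dot area is the share of cells with a UMI, the smallest dots are at or near 0, and colour is log2 of UMIs per 10000 after adding 0.1. *Cd163l1* and *Trdv4* stand out in the *Trdc* class. *Il4* stands out in TRAV11-TRAJ18 cells, except the old ones with a *Zbtb16* UMI, where it was not read. The 2 young cells with TRAV1-TRAJ33 or a TRA chain alone are not drawn.

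Within TRAV11-TRAJ18 cells the 2 ages were set side by side. Of 3488 genes, 89 were at least 2-fold higher in old cells, or 2.55%, and 117 at least 2-fold lower, or 3.35%. *Tmem176b* and *Tmem176a* had log2 ratios of old to young of 2.81 and 2.69, against 0.27 and 0.07 in the other cells. *Itga1*, a collagen-binding integrin subunit of resident T cells, was at 0.131 in young and 1.30 in old cells. *Klra7* and *Klra9* encode Ly49 receptors of a family with near-identical copies whose reads can be misassigned. They were at 0.0876 and 1.01 and at 0.0219 and 1.01, and the young *Klra9* level came from 1 UMI. In the other cells *Klra9* was at 0.0117 in young and 0.0525 in old SP. *Klrk1* and *Ly6c2* had ratios of 1.79 and 2.08, but also 2.32 and 1.91 in the other cells. *Il4* and *Slamf7* were lower, with ratios of -1.06 and -1.13. *Egr1*, an immediate early gene of receptor signals, had -1.89, from 3 UMIs in old cells. Early response genes went both ways, with *Jun* at 0.98, *Dusp1* at 0.45 and *Junb* at -1.07. *Cxcr6*, with 0.05, was level.

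In IEL, the TRAV11-TRAJ18 chain was found in 21 of 4348 young cells, or 0.483% (0.299 to 0.737), of which 20 had a *Zbtb16* UMI. It was found in 0 of 5811 old IEL cells, with an exact upper limit of 0.0635%. A *Zbtb16* UMI, with or without the chain, was found there in 10.8% of young (9.88 to 11.7) and 4.25% of old (3.75 to 4.80) cells. In the spleen of young mice, 47.5% of *Zbtb16*-positive cells carried the chain, against 20 of 469 in young IEL. Sorted CD3+ and CD3+CD4+ cells had been mixed for IEL to enrich CD4+ cells, and the part of this mixing in the IEL shares was not tested.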

How the data were processed

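Cells of young SP and old SP were read from count matrices and TCR contig tables. The authors deposited whole UMI counts per gene and cell, without normalization, and contig UMI counts, made with Cell Ranger 7.0.1 on mm10 per the labels. Only productive contigs were used. A joined name of TRBV12-2 and TRBV13-2 was resolved to TRBV13-2, since all 527 young and 366 old contigs matched the *Trbv13-2* sequence of GRCm38 exactly.

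Members and gene lists were chosen with earlier results of these data known. Counts were summed over cells, given per 10000 UMIs, and log2 ratios taken after adding 0.1. Genes needed 0.5 UMIs per 10000 in members or other cells over both ages. A level of 0 was given as a bound from a floor of 3 counts per set of cells. TCR segment genes and *Zbtb16* were left out. The genes named were those of the lists, the 15 highest and 10 lowest of TRAV11-TRAJ18 cells and the 10 highest of *Zbtb16*-only cells, by the smaller of both ratios. *Egr1* and other genes of the age comparison are members of the lists.

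Thinning drew 2000 UMIs per cell at random. No doublet caller was run: cells with 2 or more TRB or 3 or more TRA chains were left out as an alternative. Python 3.11.15, numpy 2.4.6, scipy 1.17.1, pandas 2.3.3 and matplotlib 3.10.9 were used, and the gene comparison was tested on simulated data. A further 3 library records with no group in the labels were not used. Alternatives changed the UMI minimum, depth, contig filter, pseudocount, gene minimum, weighting of cells and choice of other cells. Some listed genes are counted with their lists and not reported here by name.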

Additional observations from a re-analysis of the deposited data

Results flagged for a closer look

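In *Zbtb16*-only cells 2 of 128 listed genes were at least 2-fold higher than in other spleen cells in young SP and at least 2-fold lower in old SP, and in TRAV11-TRAJ18 cells 0 of 137 were. The difference between the ages was not tested, as each age was 1 pool. *Klrc1*, which encodes the NKG2A receptor, differed by 3.74 on the log2 scale, with a level of 0.957 in young and 0.460 in old *Zbtb16*-only cells against 0.104 and 1.34 in other cells. *Ccl5*, a chemokine of effector T cells, differed by 2.44, with 17.1 and 32.3 against 8.46 and 87.2. The levels of *Klrc1* and *Ccl5* in the other spleen cells were higher in the old pool. *Fcer1g*, with 73 UMIs in 8 of 52 young and 0 in 17 old *Zbtb16*-only cells, had an old ratio of -1.04 that rests on the added 0.1 and was not counted here, where such a bound was asked for, since its level in other old cells was too low for 0 UMIs to give a bound of 2-fold.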

How the results depend on the processing

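Levels rest on 77 young and 28 old TRAV11-TRAJ18 cells and 52 and 17 *Zbtb16*-only cells, so 1 UMI weighs more in the old pool, and a *Zbtb16* UMI depends on depth. No paired analysis was possible because each group was 1 pool, with no replicates to pair. Centring, the comparison with *Cd4*+ cells, the removal of cells that share a receptor, the restriction to TRB+ members and the TRBV12 reading were chosen after seeing the data. The cause of the shifts below was not tested.

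With 2 or more UMIs required, *Zbtb16*-positive cells were 0.812% of young and 0.163% of old cells, 35.1% and 14.3% of TRAV11-TRAJ18 cells had them, and 58.7% of the young ones carried the chain. Thinned, the first pair was 0.958% and 0.254% and the young share of TRAV11-TRAJ18 cells 37.7%. Among *Zbtb16*-positive cells with a TRA contig 66.2% and 63.2% carried the chain. Reading the joined segment name as TRBV12 gave 36.6% and 44.8% for TRBV13, TRBV29 or TRBV1.

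For TRAV11-TRAJ18 cells a pseudocount of 1 left 31 genes higher and 10 lower, all among the 151 and 49. A minimum of 0.2, no minimum and centring gave 82, 94 and 75 lower genes. For *Zbtb16*-only cells a pseudocount of 1 gave 8 and 0, a minimum of 0.2 gave 79 and 13, no minimum 84 and 18, thinning 82 and 34, other cells with *Cd44* 32 and 12, and other cells with *Cd4* and no *Cd8b1* 77 and 23. Equal weights gave 13 lower genes, centring 12, and leaving out cells that share a receptor 12. Thinning kept 114 of the 151 and 37 of the 49 genes of TRAV11-TRAJ18 cells, but 30 of the 49 and 5 of the 7 of *Zbtb16*-only cells.

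Of 649 values for 59 named genes of TRAV11-TRAJ18 cells over 11 alternatives 8 turned round, and of 288 for 24 genes of *Zbtb16*-only cells over 12 alternatives 5 did. Each value below is that of the age with the smaller ratio, so it stands for 1 age only. The 1 turn of *Cd8b1* in each set was fixed by the choice of other cells with no *Cd8b1* UMI and says nothing of that gene. This choice bears on *Cd8a* too, since *Cd8b1*+ cells were left out. In TRAV11-TRAJ18 cells *Ccl4* became 0.16 when thinned. Against other cells with *Cd4* and no *Cd8b1*, *Ccl4* became 0.33, *Cd74* 0.21, *Cd8a* 0.69, *Cd8b1* 0.78, *Eomes* 0.0871, *Maf* -0.34 and *Ramp1* -0.0872. In *Zbtb16*-only cells thinning gave -0.63 for *Atp8a2* and -0.43 for *Ramp1*, the *Cd4* comparison 3.68 for *Cd8b1* and -0.35 for *Maf*, and the restriction to TRB+ members -0.37 for *Maf*. Thinning ended the calls of *Ccl4*, *Cd74*, *Eomes*, *Fasl*, *Gzmm*, *Icos*, *Il12rb1*, *Maf* and *Ramp1* in TRAV11-TRAJ18 cells. In *Zbtb16*-only cells thinning ended those of *Atp8a2*, *Cd44*, *Ifng*, *Il18rap* and *Ramp1*, and the *Cd44* comparison those of *Cd160*, *Cd74*, *Il18rap* and *Xcl1*. The *Cd44* comparison also ended the call of *Cd44* there, which was built into the choice of other cells with a *Cd44* UMI and says nothing of that gene. Of the genes counted, 25 of 59 and 7 of 24 stayed at least 2-fold the same way under every alternative run.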

Other observations

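A second productive TRA chain was read in 9 of 77 young and 0 of 28 old TRAV11-TRAJ18 cells. *Cd44* was found in 54.5% of young (42.8 to 65.9) and 46.4% of old (27.5 to 66.1) TRAV11-TRAJ18 cells, against 19.9% and 37.4% of other cells, so in old SP the interval held the share of the other cells. *Cd160*, a receptor for HVEM, was at 3.99 (3.43 to 4.61) in the young and 2.02 (1.34 to 2.92) in the old TRAV11-TRAJ18 cells, against 0.352 and 0.501. In *Zbtb16*-only cells it was at 2.19 (1.75 to 2.70) and 1.15 (0.644 to 1.90).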
